A study of Mus musculus with 6 samples.

Results

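Small nucleolar RNAs (snoRNAs) and their Cajal body relatives were examined in naive CD4 T cells with and without a conditional deletion of Cmtr1. Genes with a symbol that starts with Snora, Snord or Scarna in the GENCODE vM21 annotation were taken when their read counts summed to 50 or more over all 6 libraries. This gave 41 genes out of 150 annotated genes with such symbols and out of 46983 genes in the count tables. The 41 were 15 of 42 Snora genes, 21 of 99 Snord genes and 5 of 9 Scarna genes. Of the other annotated genes, 70 had no counted read and 39 had a sum of 1 to 49. The genes were chosen by these summed counts, which come from both genotypes together and are given as a description. Just above the limit were Snord92 with 51 counts, Snord8 with 52 and Snord83b with 54, and just below it Snora20 with 48, Snord91a with 47 and Snord13 with 46.

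Naive CD4 T cells of male mice gave the RNA, which was sequenced after removal of ribosomal RNA; the cells had been sorted from lymph nodes by flow cytometry as TCRb+ CD4+ CD62L+ CD44- cells that excluded DAPI. Both groups carried the floxed Cmtr1 allele (Cmtr1 fl/fl). The control group lacked the CD4cre transgene (2 libraries) and the Cmtr1 cKO group carried it (4 libraries). CD4cre recombines floxed alleles in cells of the T lineage, from the thymus on. CMTR1 is a cap methyltransferase that acts on the ribose of the nucleotide beside the mRNA cap. The sources used here do not give the age of the mice. Whether each library is a separate mouse is not stated in the labels, and the p-values reflect only how these samples vary, which may be technical variation.

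SnoRNAs are short nuclear RNAs that mostly come from the introns of other genes, called host genes, and are trimmed from the spliced intron. Box C/D snoRNAs (Snord) work with fibrillarin to guide ribose methylation of ribosomal RNA, and box H/ACA snoRNAs (Snora) work with dyskerin to guide pseudouridylation. Small Cajal body RNAs (Scarna) guide the same modifications on spliceosomal RNAs. A few members of these families take part in cleavage of the ribosomal RNA precursor, and a few are transcribed from promoters of their own.

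The sequences of the box C/D RNAs that the results turn on are shown first, with TGATGA (the common form of box C) and CTGA within the last 20 bases (box D) in capitals. They are from GENCODE vM21 transcripts on GRCm38, 5′ to 3′, in DNA letters. Snord17, Snord104 and Snord100 were lower in Cmtr1 cKO, and Snord118, also called U8, is shown as a box C/D RNA that was not.
Snord17: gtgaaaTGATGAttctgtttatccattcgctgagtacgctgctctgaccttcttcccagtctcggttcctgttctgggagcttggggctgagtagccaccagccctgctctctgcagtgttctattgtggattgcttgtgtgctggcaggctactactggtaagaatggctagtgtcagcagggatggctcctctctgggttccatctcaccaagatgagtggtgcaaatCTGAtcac
Snord104: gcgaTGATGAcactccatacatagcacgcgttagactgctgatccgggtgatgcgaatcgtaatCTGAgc
Snord100: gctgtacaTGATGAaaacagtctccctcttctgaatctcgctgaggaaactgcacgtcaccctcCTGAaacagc
Snord118: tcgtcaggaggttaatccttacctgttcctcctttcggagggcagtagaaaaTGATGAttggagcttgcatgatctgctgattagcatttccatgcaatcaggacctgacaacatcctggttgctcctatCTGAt

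The box H/ACA RNAs that were lower in Cmtr1 cKO follow, with the ACA of the 3′ end in capitals where it lies within the last 8 bases.
Snora73b: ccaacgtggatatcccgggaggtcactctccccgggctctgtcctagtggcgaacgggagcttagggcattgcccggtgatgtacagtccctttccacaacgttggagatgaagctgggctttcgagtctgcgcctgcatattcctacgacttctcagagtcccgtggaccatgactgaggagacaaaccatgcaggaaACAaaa
Snora23: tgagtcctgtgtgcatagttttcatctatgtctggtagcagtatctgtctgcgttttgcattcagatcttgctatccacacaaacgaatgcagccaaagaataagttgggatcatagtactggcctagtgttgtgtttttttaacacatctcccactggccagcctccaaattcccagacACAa
Snora57: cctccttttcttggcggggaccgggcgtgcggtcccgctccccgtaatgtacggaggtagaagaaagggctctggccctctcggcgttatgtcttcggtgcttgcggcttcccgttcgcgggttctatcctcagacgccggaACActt
Snora78: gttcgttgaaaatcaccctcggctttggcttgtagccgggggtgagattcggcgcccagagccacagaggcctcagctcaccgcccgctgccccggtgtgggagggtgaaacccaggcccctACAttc
Snora21: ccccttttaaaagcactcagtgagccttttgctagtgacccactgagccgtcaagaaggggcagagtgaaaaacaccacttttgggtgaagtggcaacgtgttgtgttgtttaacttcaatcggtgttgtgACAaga

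These letters followed the names. ACA within the last 8 bases was found in 15 of 15 Snora genes with enough counts and in 40 of 42 annotated ones (95.2%), against 10.9% of stretches of the same lengths from the starts of lincRNA transcripts. TGATGA anywhere together with CTGA in the last 20 bases was found in 16 of 21 Snord genes (76.2%), in 73.7% of annotated ones and in 0.483% of the lincRNA stretches. Of the 5 Scarna genes, 4 held TGATGA and 4 held TGAG, the letters of the CAB box that directs RNAs to Cajal bodies. TGAG is short and was present in 59.6% of the lincRNA stretches. It was also in 17 of 21 Snord genes (81.0%) and 7 of 15 Snora genes (46.7%), so it did not mark the Scarna class. The lincRNA stretches of those lengths held it in 38.5% and 52.0%. Only the RNA strand was searched, and the motifs can overlap, since CTGATGA holds both CTGA and TGATGA. A match describes the letters and is not evidence of a working box.

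Levels are given as CPM, counts scaled to a common library size after TMM factors had aligned the libraries on the bulk of their genes. Genotype was tested by quasi-likelihood in edgeR over 12748 genes, and calls were made where the Benjamini-Hochberg adjusted p was under 0.05. Log2 differences are Cmtr1 cKO minus control, with standard errors (SE), and means carry the standard deviation (SD). All 41 genes passed the filter on low counts. In bulk RNA, fewer cells of a type and less RNA per cell cannot be told apart.

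Of the 41 RNAs, 10 were lower in Cmtr1 cKO and 0 were higher by edgeR. At an unadjusted p under 0.05, 14 were lower and 1 was higher, and DESeq2 called 8 lower and 0 higher. Over all genes tested, 6.77% were called lower and 4.66% higher, 11.4% in all. The median log2 difference of the 41 RNAs was -0.31, and 29 of 41 values were below 0, while the median of all genes tested was -0.00. Every Cmtr1 cKO library was below both controls for 19 of the 41, against 20.8% of all genes tested. Every Cmtr1 cKO library was above both controls for 4 of the 41, against 18.2% of all genes. The groups overlapped for the remaining 18.

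**Figure D1:**
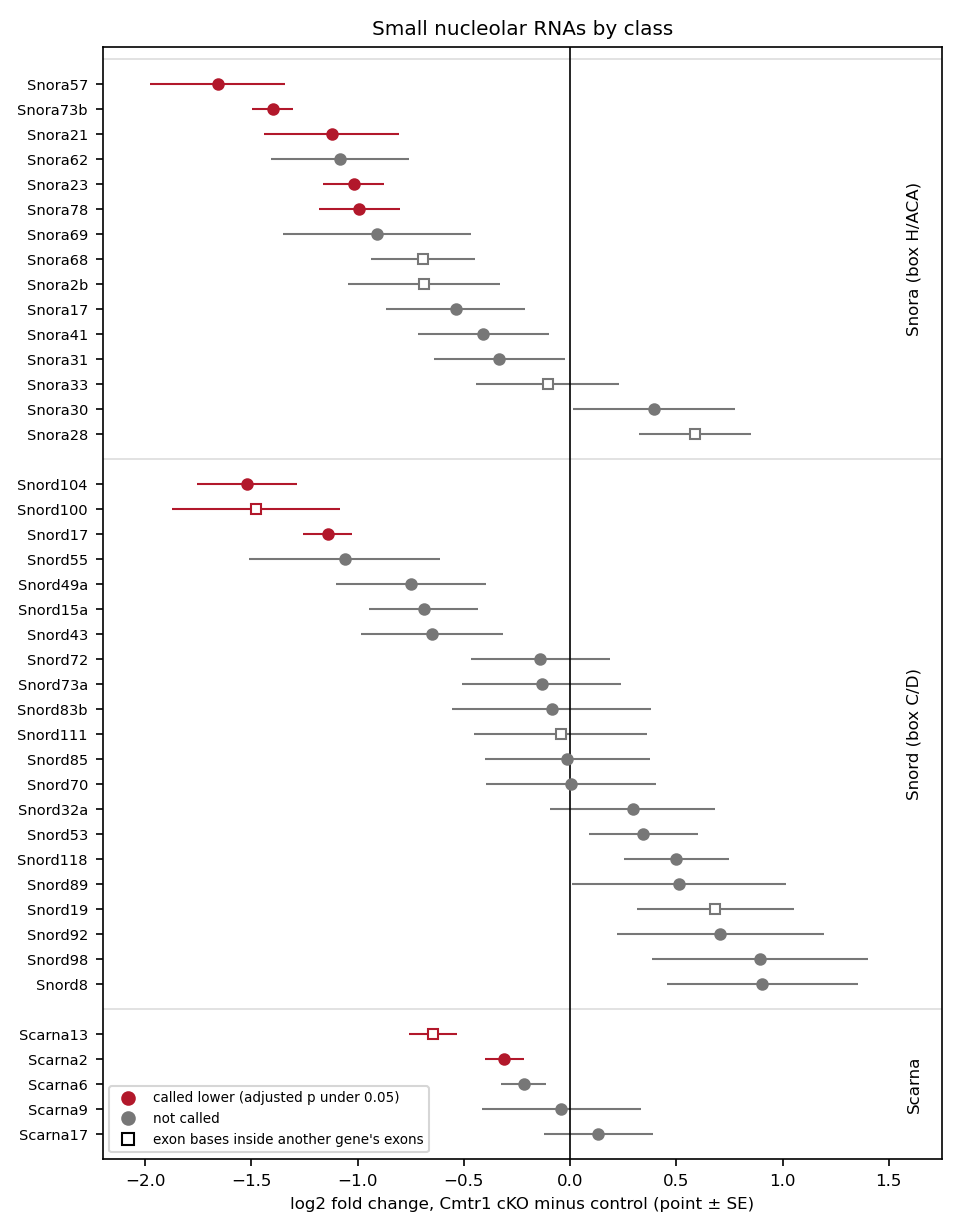
Log2 difference, Cmtr1 cKO (n = 4) minus control (n = 2), for each of the 41 RNAs by class, from edgeR, with bars for the SE and squares for RNAs with exon bases inside exons of another gene. The 10 called RNAs all lie below 0, from Snora57 at -1.66 to Scarna2 at -0.31.

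The counts were very unequal. Of 58473 counts over the 41 RNAs, 91.3% belonged to the 6 with over 1000 counts, which are Snord17, Scarna2, Snora73b, Scarna13, Scarna6 and Snora23. Of these 6, 5 were lower in Cmtr1 cKO. The other 35 had at most 410 counts each, with 5 called, against 11.4% of all genes tested. The median over all 41 was 121 counts. The SE of the log2 difference was 0.09 to 0.14 for the 6 and 0.19 to 0.51 for the 35, so smaller differences were not detectable in the less abundant RNAs.

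The box H/ACA class had 5 of 15 RNAs lower and 0 higher, against 6.77% and 4.66% of all genes tested. Its median log2 difference was -0.69, and 13 of 15 values were below 0. In 10 of the 15 every Cmtr1 cKO library was below both controls, against 20.8% of all genes tested. Measured against the mean of the controls, the class median was -0.82, -0.67, -0.68 and -0.66 in Cmtr1 cKO 1 to 4. The 4 libraries thus gave similar class medians.

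Snora73b belongs to the U17 family, which acts in cleavage of the ribosomal RNA precursor. It lies at chr4:132352322-132352526 (GRCm38, minus strand) within introns of both Rcc1 and Snhg3, and opposite an exon of Gm17300 on the other strand. Its level was 194 and 253 CPM in the control libraries, against 81.0, 84.1, 81.3 and 92.0 CPM in Cmtr1 cKO. The groups lay far apart, and the Cmtr1 cKO libraries lay close together. The mean fell from 223 ± 41.3 (SD, n = 2) to 84.6 ± 5.16 CPM (SD, n = 4), to 37.9% of control, a log2 difference of -1.40 ± 0.10 (SE; edgeR, Benjamini-Hochberg adjusted p = 3.03e-05). Its close copy Snora73a, 96.6% identical over the shorter of the pair, had 10 counts, and reads that fit both equally are in neither count.

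Snora23, an H/ACA guide RNA in an intron of Ipo7 at chr7:110046364-110046547 (plus strand), had 34.2 and 47.4 CPM in the controls, compared with 18.1, 17.9, 22.2 and 22.3 CPM in Cmtr1 cKO 1 to 4. All 4 Cmtr1 cKO libraries were below both controls. Its log2 difference was -1.02 ± 0.14 (SE; edgeR, Benjamini-Hochberg adjusted p = 0.0015). Snora78, in an intron of the non-coding host Snhg9 at chr17:24719676-24719803 (minus strand), had 8.83 and 10.2 CPM in controls 1 and 2 and 4.07, 4.26, 5.82 and 4.99 CPM in the 4 Cmtr1 cKO libraries. The groups did not overlap, and its log2 difference was -0.99 ± 0.19 (SE; edgeR, Benjamini-Hochberg adjusted p = 0.00933).

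Snora57, at chr19:8888538-8888685 (minus strand) with no gene containing it on its strand, had the most negative log2 difference of the 41, -1.66 ± 0.32 (SE; edgeR, Benjamini-Hochberg adjusted p = 0.0092). It had 41 and 41 counts in the controls and 7, 16, 13 and 15 in Cmtr1 cKO, so the value rests on few reads. Every Cmtr1 cKO library was below both controls. Its closest copy, Gm26132, is 95.9% identical. Snora21, in an intron of Rpl23 at chr11:97781639-97781775 (minus strand), had 23 and 32 counts in the controls and 14, 13, 9 and 14 in Cmtr1 cKO. The groups were separate, and the log2 difference was -1.12 ± 0.32 (SE; edgeR, Benjamini-Hochberg adjusted p = 0.0441). Gm23795 is 97.8% identical to it.

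The other 10 Snora RNAs were not called. Snora62, with log2 difference -1.08 and edgeR Benjamini-Hochberg adjusted p = 0.052, was the nearest to the limit. Snora69, Snora68 and Snora2b had values of -0.91, -0.69 and -0.69. Only Snora28 and Snora30 had values above 0, at 0.59 and 0.39. With the share of reads outside annotated exons as a term in the model, they were at -0.16 and -0.59. In that model Snora31 went from -0.33 to 0.12. Snora28 lies wholly within exon bases of Eif5, and Cmtr1 cKO 4, at 4.30 CPM, was below both of its controls.

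The box C/D class had 3 of 21 RNAs lower and 0 higher, against 6.77% and 4.66% of all genes tested. Its median log2 difference was -0.04, and 12 of 21 values were below 0. Every Cmtr1 cKO library was below both controls in 7 of them and above both in 4. Over all genes tested those shares were 20.8% and 18.2%, so the 4 above both are near the share over all genes. The class median in Cmtr1 cKO 1 to 4 was 0.09, 0.26, -0.05 and -0.34 against the mean of the controls. Those medians took both signs. A difference between the box C/D and H/ACA classes was not tested.

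Snord17, a box C/D RNA that is unusually long for its class, lies in an intron of Snx5 at chr2:144265979-144266216 (minus strand). It had the highest level per length of all 41, a mean of 1206 CPM per kb. It was at 418 and 486 CPM in the controls and at 180, 190, 201 and 248 CPM in Cmtr1 cKO. All 4 Cmtr1 cKO libraries were far below both controls, with Cmtr1 cKO 4 the highest of them. The mean fell from 452 ± 48.2 (SD, n = 2) to 205 ± 30.1 CPM (SD, n = 4), to 45.3% of control, a log2 difference of -1.14 ± 0.12 (SE; edgeR, Benjamini-Hochberg adjusted p = 0.00038).

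Snord104, at chr11:106500993-106501062 (plus strand) with no containing gene on its strand, had 5.42 and 6.70 CPM in the control libraries, against 1.67, 2.00, 2.54 and 2.24 CPM in Cmtr1 cKO. The groups were well separated. Its log2 difference was -1.52 ± 0.24 (SE; edgeR, Benjamini-Hochberg adjusted p = 0.00297). Snord100, whose bases lie wholly within exon bases of its host Rps12 at chr10:23785750-23785823 (minus strand), had 24 and 16 counts in the controls and 10, 8, 4 and 6 in Cmtr1 cKO. Its groups did not overlap either, and the log2 difference was -1.48 ± 0.40 (SE; edgeR, Benjamini-Hochberg adjusted p = 0.0355). Reads that overlap exons of both genes are ambiguous and enter no count. With the vM21 exons, that rule would leave Snord100 without counts. The annotation behind the counts therefore differed from vM21 here, and how its reads were assigned was not tested.

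Snord118 is transcribed from its own promoter and takes part in processing of the large-subunit ribosomal RNA precursor. It had 2.80 and 4.86 CPM in the controls, compared with 5.28, 4.99, 6.14 and 5.16 CPM in Cmtr1 cKO 1 to 4. All Cmtr1 cKO libraries were above both controls, but only narrowly above control 2. The log2 difference of 0.50 ± 0.25 (SE) did not pass (edgeR, Benjamini-Hochberg adjusted p = 0.193). Snord8, Snord19 and Snord92 were likewise above both controls in every Cmtr1 cKO library, with log2 differences of 0.90, 0.68 and 0.71, and none of them was called. Snord53, among the 3 Snord RNAs with the highest level per length, had a value of 0.34.

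**Figure D2:**
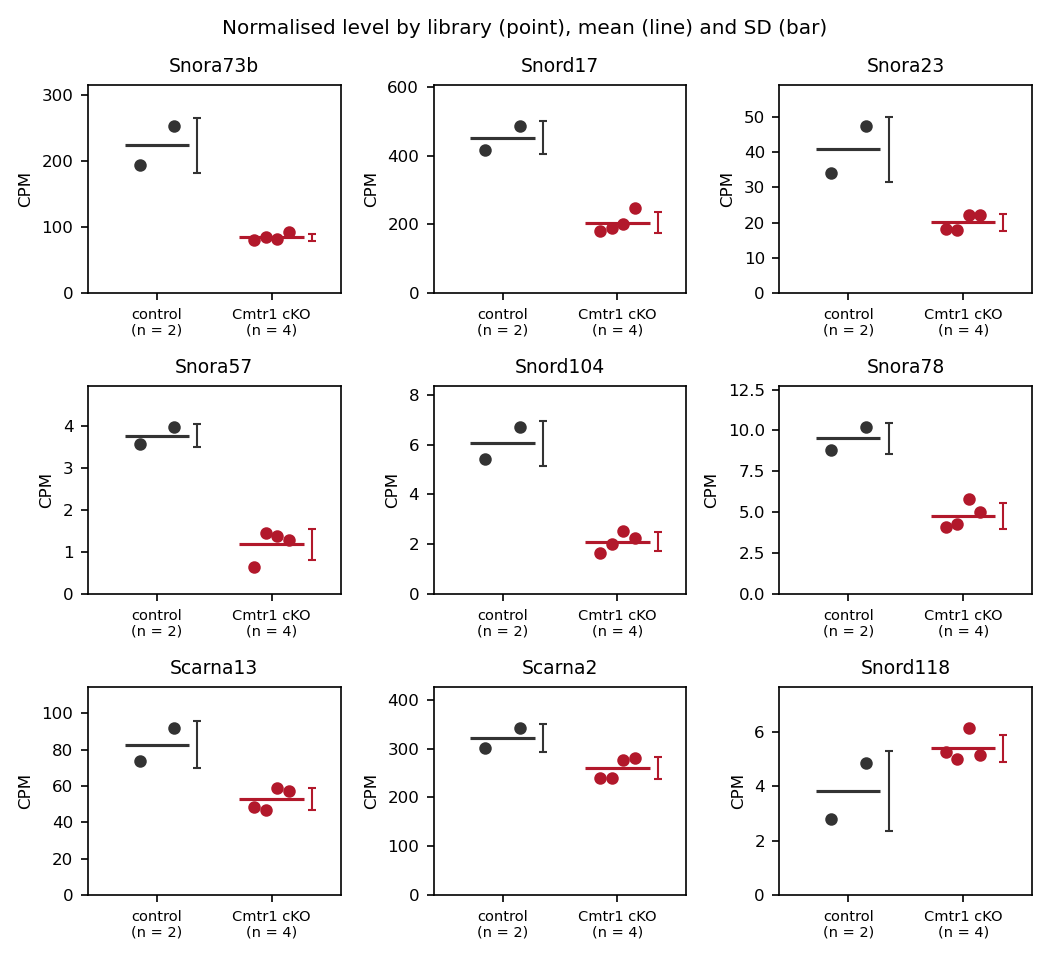
Level in each library, in CPM on axes that start at 0, for the RNAs the results turn on; points are libraries of the 2 controls and the 4 Cmtr1 cKO, lines are means and bars the SD. Snord17 and Snora73b separate widely, while the Snord118 groups nearly touch.

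The 5 Scarna RNAs had 2 lower and 0 higher, against 6.77% and 4.66% of all genes tested, with a median log2 difference of -0.22. Scarna13, in the non-coding host Snhg10 at chr12:105031075-105031349 (minus strand), had 73.5 and 91.8 CPM in controls 1 and 2 and 48.7, 46.5, 58.8 and 57.5 CPM in the 4 Cmtr1 cKO libraries. The groups did not overlap. Its mean fell from 82.7 ± 12.9 (SD, n = 2) to 52.9 ± 6.17 CPM (SD, n = 4), a log2 difference of -0.64 ± 0.11 (SE; edgeR, Benjamini-Hochberg adjusted p = 0.00633). Of its exon bases, 23.6% are shared with Mir3069.

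Scarna2, which guides methylation of the U2 spliceosomal RNA, had a mean of 777 CPM per kb in the controls and 627 CPM per kb in Cmtr1 cKO. It had 301 and 342 CPM in the control libraries, against 240, 240, 277 and 282 CPM in Cmtr1 cKO. All Cmtr1 cKO libraries were below both controls, by a small margin. The mean in Cmtr1 cKO was 80.7% of control, a log2 difference of -0.31 ± 0.09 (SE; edgeR, Benjamini-Hochberg adjusted p = 0.0478). Scarna6, Scarna9 and Scarna17 were not called. Scarna6 had 38.5 and 45.2 CPM in the controls, compared with 34.5, 32.0, 36.7 and 40.3 CPM in Cmtr1 cKO 1 to 4, groups that overlapped, with a log2 difference of -0.22. Scarna9 had -0.04 and Scarna17 had 0.13.

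Summed per 1000000 gene counts, the Snora RNAs held 288 ± 45.7 (SD, n = 2) in the controls and 138 ± 4.43 (SD, n = 4) in Cmtr1 cKO, 47.9% of control. The Snord RNAs were at 53.4% of control and the Scarna RNAs were at 85.5%. These sums describe single genes more than classes, since Snora73b held 68.4% of Snora counts, Snord17 87.7% of Snord counts and Scarna2 72.7% of Scarna counts.

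**Figure D3:**
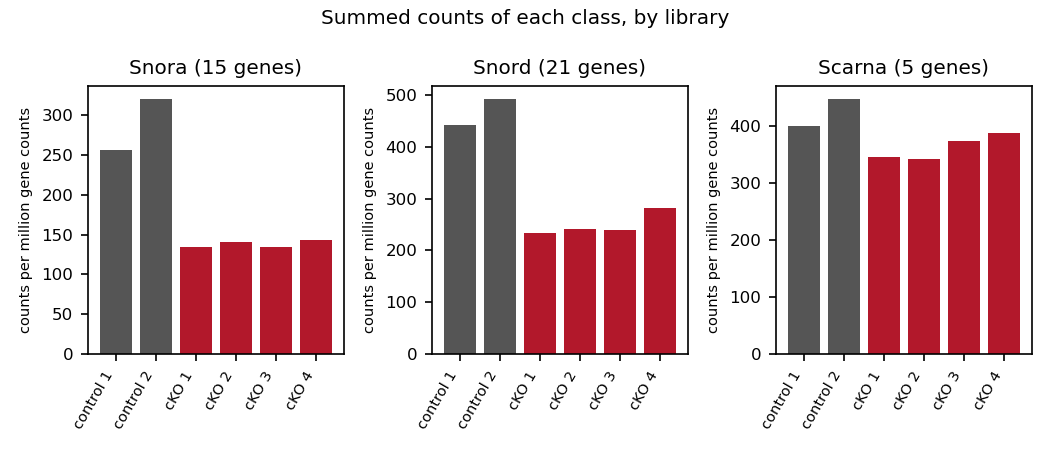
Summed counts of each class per 1000000 gene counts, 1 bar per library, on axes that start at 0. Every Cmtr1 cKO library lies below both controls in each class, by least in Scarna.

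Overlap with exons of another gene on the same strand bears on how reads are counted. It was taken from GENCODE vM21, and the annotation behind the counts is not named. RNAs wholly within such exons had 68 to 392 summed counts, where the counting rule with vM21 exons would leave none. The overlap groups thus describe vM21 and not how these reads were assigned. None of the exon bases overlapped for 33 RNAs, of which 8 were lower, with a median log2 difference of -0.31. Part of them overlapped for 3 (Scarna13, Snora2b and Snord111), of which 1 was lower. All of them overlapped for 5 (Snora28, Snora33, Snora68, Snord100 and Snord19), of which 1 was lower, with a median of -0.11. Among RNAs without overlap, 5 of 11 Snora were lower with a median of -0.99, and 2 of 18 Snord were lower with a median of -0.05. The share called lower over all genes tested was 6.77%. Over the 41 RNAs, log2 difference and length had Pearson r = -0.30 and Spearman rho = -0.38, a description over genes that share libraries. Median lengths were 132 bases for Snora and 83 for Snord, so class and length move together, and the part of length was not tested.

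A gene on the same strand contained 35 of the 41 RNAs. The host was a ribosomal protein gene for 13, another protein-coding gene for 18 and a non-coding gene for 4. Of RNAs with a ribosomal protein host, 2 of 13 were lower and 12 of 13 values were below 0, with a median of -0.69. Of those with another protein-coding host, 3 of 18 were lower, with a median of -0.03. Of the 6 with no containing gene, 3 were lower (Scarna2, Snora57 and Snord104). Beside these counts, 6.77% of all genes tested were called lower.

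Where several genes contain an RNA, 1 was taken as its host, a protein-coding gene before others and then the gene with the longest exons, which for Snora73b was Rcc1. Of 30 hosts tested, 15 were lower in Cmtr1 cKO and 0 were higher, against 6.77% and 4.66% of all genes tested. All 11 ribosomal protein hosts were lower, with a median log2 difference of -1.06. Of the 19 other hosts, 4 were lower (Eef1b2, Tpt1, Ipo7 and 2410006H16Rik), with a median of 0.12. Across 33 pairs, the log2 differences of the RNA and its host had Pearson r = 0.53 and Spearman rho = 0.55, given as a description, since a pair shares its libraries and some pairs share a host.

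For the most abundant snoRNAs, the values of RNA and host differed. Snx5, a sorting nexin that hosts Snord17, had 191 and 175 CPM in controls 1 and 2 and 167, 183, 178 and 188 CPM in the 4 Cmtr1 cKO libraries. Its groups overlapped, with a log2 difference of -0.03 ± 0.07 (SE). The log2 ratio of Snord17 to Snx5 was 1.12 and 1.47 in the controls and 0.11, 0.05, 0.18 and 0.40 in Cmtr1 cKO. It was lower by -1.11 on the log2 scale, with no overlap (exact permutation test, two-sided, p = 0.0667, the smallest that 15 splits allow).

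Rcc1, the exchange factor of the Ran GTPase, had a log2 difference of 0.19 ± 0.13 (SE), and the log2 ratio of Snora73b to Rcc1 differed by -1.59. Snhg3, the non-coding gene that also contains Snora73b and is not among the 30 hosts counted above, had 8.04 and 7.48 CPM in the control libraries, against 4.54, 5.71, 4.13 and 3.78 CPM in Cmtr1 cKO. It was itself lower, by a log2 difference of -0.77 ± 0.20 (SE; edgeR, Benjamini-Hochberg adjusted p = 0.0335), and the ratio of Snora73b to Snhg3 differed by -0.61. The groups of that log2 ratio overlapped, with 4.58 and 5.07 in the controls and 4.59 in Cmtr1 cKO 4. With a prior count of 2 in place of 0.5 they did not overlap. Which of the 2 transcripts gave the snoRNA cannot be told apart here. Ipo7, importin 7, had a log2 difference of -0.33 ± 0.08 (SE), and the ratio of Snora23 to Ipo7 differed by -0.67.

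Of the 13 RNAs with a ribosomal protein host, 12 had a ratio to the host above that of the controls and 1, Snord55, had a ratio below it, by -0.11. Rps12 fell by 1.55 on the log2 scale, and the ratio to it differed by 0.09 for Snord100 and by 1.47 for Snora33, in the same host. Snora33 had a log2 difference of -0.11 and was not called. Snora21 and Rpl23 both fell, and their ratio differed by 0.08. Snord32a, with a log2 difference of 0.30, and its host Rpl13a, at -1.06, gave a ratio higher by 1.39. Gm45713, another protein-coding gene that contains Snord32a, was at 0.11 and not called. The ratio of Snord32a to Gm45713 differed by 0.22, with groups that overlapped. Over the 33 pairs, the smallest Benjamini-Hochberg adjusted value of the exact permutation test was 0.275. With 15 splits the p of that test cannot go below 0.0667, so no ratio could have been called whatever its values.

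**Figure D4:**
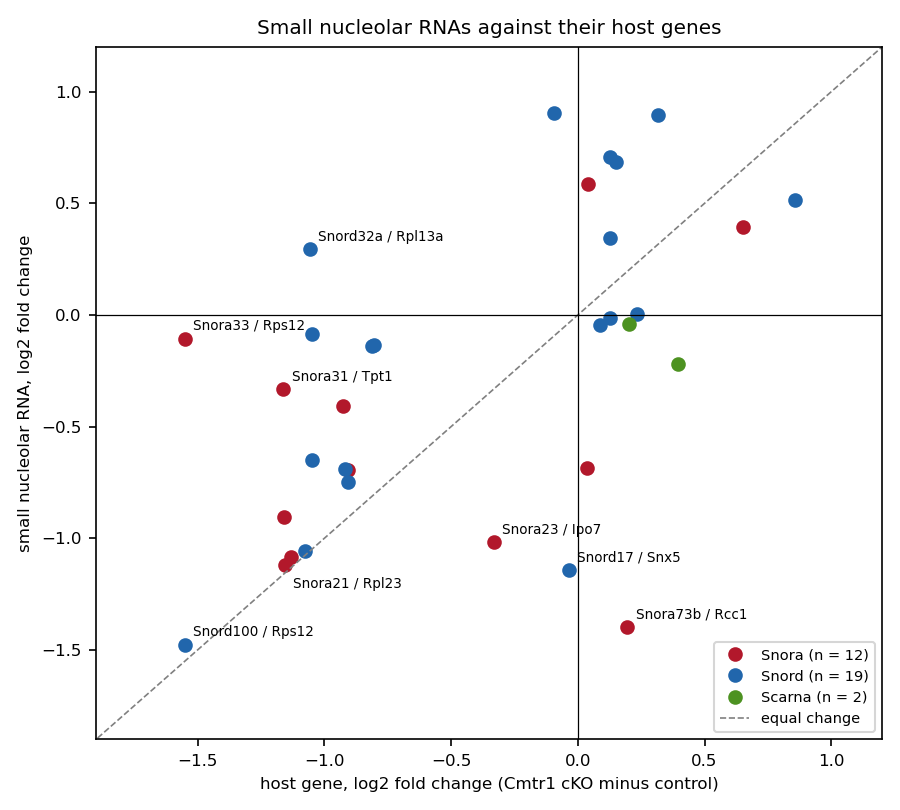
Log2 difference (Cmtr1 cKO minus control) of each snoRNA, vertical axis, against that of its host, horizontal axis, for pairs in which both were tested; colours give the class and the dashed line marks equal differences. Snord17 and Snora73b lie far below 0 with hosts near 0, and Snora33 and Snord32a lie near 0 with hosts below -1.

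Of 34 tested genes for proteins that bind, assemble or process these RNAs, 2 were lower and 3 were higher, 5 of 34 against 11.4% called over all genes tested. None of the 4 box C/D core proteins was called (Fbl 0.08, Nop56 0.20, Nop58 0.23 and Snu13 -0.24 in log2 difference). None of the 4 H/ACA core proteins was called either (Dkc1 0.10, Gar1 0.14, Nhp2 -0.11 and Nop10 -0.29). Of 12 assembly factors, Znhit6 and Nufip1, which help to build box C/D particles, were higher, and Hsp90ab1, a chaperone, was lower.

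Znhit6 had 9.53 and 7.38 CPM in the controls, compared with 15.1, 13.2, 14.2 and 14.9 CPM in Cmtr1 cKO 1 to 4, with a log2 difference of 0.76 ± 0.15 (SE). Hsp90ab1 had 943 and 993 CPM in controls 1 and 2 and 595, 595, 636 and 731 CPM in the 4 Cmtr1 cKO libraries, with a log2 difference of -0.60 ± 0.10 (SE). In both genes the groups did not overlap. Coil, the scaffold of Cajal bodies, was higher by 0.51, and Aqr, an intron-binding helicase, was lower by -0.30. Tgs1, which makes the trimethyl cap, Phax, an export adaptor, and Dbr1, which opens intron lariats, had values of -0.10, -0.37 and -0.14 and were not called.

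Facts of the libraries move with some of these results. Gene counts ran from 9513874 to 11949838 per library. Uniquely mapped reads that hit no annotated exon made up 37.2% and 34.0% in the controls and 52.3%, 51.6%, 46.7% and 38.0% in Cmtr1 cKO. With that share as a term in the model, 5 RNAs were lower, beside 346 of 12748 genes tested. Of the 5, 4 were among the 10 (Snora73b, Snord17, Snora23 and Snord104), and the fifth was Snord43. Of the 6 calls that were lost, Scarna2 went from -0.31 to -0.10, Scarna13 from -0.64 to -0.38, Snora78 from -0.99 to -0.75, Snora57 from -1.66 to -1.38, Snora21 from -1.12 to -1.02 and Snord100 from -1.48 to -2.22 in log2 difference. Cmtr1 cKO 3 stood apart, with a ratio of sense to antisense gene counts of 5.57 (18.7 to 22.7 in the others). It also had 4.83% ambiguous reads (0.755% to 1.09%). Without it, 7 RNAs and 384 of 12688 genes tested were lower, against 10 RNAs and 863 of 12748 genes in the main fit. Leaving out control 1 or control 2 left 1 control. The log2 differences were then -1.57 and -1.18 for Snora73b, -1.24 and -1.02 for Snord17, and -0.39 and -0.20 for Scarna2. Without Cmtr1 cKO 4, 16 RNAs were lower and 2 were higher (Snora28 and Snord98). In that fit 1940 of 12603 genes tested were lower and 1940 were higher, so calls rose over all genes too. With all libraries and the outside-exon share in the model, Snora28 and Snord98 were at -0.16 and -0.17. Summed naive CD4 T cell markers were 6565 to 6735 CPM in the controls and 6050 to 7208 CPM in Cmtr1 cKO, with 1 of 10 (Ccr7) lower. No marker of another cell type was called, though summed B cell markers were 27.9 to 36.5 and 18.7 to 37.1 CPM, CD8 markers 23.6 to 28.7 and 17.0 to 21.3 CPM, and myeloid markers 6.12 to 18.3 and 4.56 to 7.53 CPM, whose part in the results was not tested. Cmtr1 itself had 11.2 and 11.4 CPM in the control libraries, against 16.0, 19.8, 14.6 and 7.57 CPM in Cmtr1 cKO, groups that overlapped. The sources used here do not name the deleted exons, so its count does not check the labels.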

How the data were processed

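Reads per gene were taken as the whole-number counts the authors deposited, in the layout of STAR's gene table. Per the submitters' processing notes, the tools were STAR 2.5.2b and edgeR and the builds mm10 and GRCm38; the sources used here do not name the annotation behind the counts. In such tables a read counts only if it maps to 1 place and to exons of 1 gene. Per the labels, RNA was extracted with Trizol and made into TruSeq libraries after Ribozero Gold depletion, with no step described that selects small RNAs. Counts on an RNA within a host may therefore also hold reads of unspliced host RNA, which was not tested. The column that counts the sense strand was used. Identifiers matched GENCODE vM21 for 46488 of 46983 genes (98.9%). The 4 entries that name no gene held 52.1% to 62.0% of reads and were left out. No replicate pair agreed within sampling noise over all genes.

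Genes passing filterByExpr were scaled by TMM and tested with edgeR 4.0.16 (glmQLFit, robust; genotype as the only term), with Benjamini-Hochberg adjustment, and DESeq2 1.42.0 was an alternative. The code was tested on simulated data. Ratios to hosts used log2 CPM with a prior count of 0.5 and the exact permutation test. RNAs named were every called one, the 3 most abundant per length in each class, every Scarna gene, those nearest the count limit, their hosts and called protein genes; others were named after their values were seen. The genes and lists were chosen with earlier results of these data known. Other settings were 14 refits. No genome was used, so motif rates in flanking windows and the H box were not analysed here.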

Additional observations from a re-analysis of the deposited data

Results flagged for a closer look

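Within the 4 Cmtr1 cKO libraries, 3 of 44 sets of values had 1 library far from the rest, where chance gives about 1 in 20. Snora17 was at 2.54 CPM in Cmtr1 cKO 3 and lower in the other Cmtr1 cKO libraries. Snord85 was at 1.90 CPM in Cmtr1 cKO 2, above the other Cmtr1 cKO libraries. Neither RNA was called, and both rest on few reads. The summed Snord class was at 283 counts per 1000000 gene counts in Cmtr1 cKO 4, the highest of the Cmtr1 cKO libraries and still below both controls.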

How the results depend on the processing

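Results rest on 2 controls. DESeq2 called 8 of the 41 RNAs lower, RLE scaling 9, no filter 12 and unstranded counts 7. Over all genes tested, those settings called 733, 832, 1105 and 725 lower, against 863 in the main fit. Snord17 was called in all 14 refits, Snora73b in 13 (with unstranded counts it was not tested), and Snord100, Snora21 and Scarna2 in 7, 6 and 5. Leaving out control 1 or control 2 left 1 control, and the median log2 difference of the 41 RNAs was then -0.39 and -0.22. Without Cmtr1 cKO 1 to 4, 8, 7, 7 and 16 RNAs were lower, and in the last 2 were higher. Over all genes tested, 472, 435, 384 and 1940 were lower in those fits, and in the last 1940 were higher. The causes were not tested. Over the refits that left out 1 library, the median log2 difference ran from -0.94 to -0.64 for Snora, -0.19 to 0.14 for Snord (above 0 without Cmtr1 cKO 4), -0.39 to -0.088 for Scarna and -0.38 to 0.23 for RNAs wholly in host exons. Hosts called higher ran from 0 to 6, and protein genes from 0 to 5 lower and 0 to 5 higher. Scarna9 ran from -0.42 to 0.47, changing sign without control 2, Cmtr1 cKO 1 or Cmtr1 cKO 4.

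Adding the outside-exon read share to the model left 5 RNAs lower, with medians of -0.59 for Snora, -0.39 for Snord and -0.10 for Scarna, 1 host and 6 protein genes higher, and Scarna6 at 0.026. Length and GC offsets gave medians of -1.05 for Snora, -0.44 for Snord and -0.64 for RNAs without overlap, and Scarna17 at -0.082. Hosts called higher were 2 by DESeq2, 1 with RLE and 4 with no filter, where 4 protein genes were lower. The Snora share without RNAs that overlap exons was 45.3% of control.

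Replicate numbers 1 and 2 occur in both groups, but nothing in the labels ties them, so the samples share only a number. With a replicate block, Cmtr1 cKO libraries whose number no control shares are fitted exactly and add nothing to the genotype difference. That difference rests on controls 1 and 2 and Cmtr1 cKO 1 and 2, with 1 degree of freedom left for the spread. The values of the block fit are therefore given only as a description. A replicate block called 4842 of 12748 genes tested, 2448 lower and 2394 higher, against 1457 in the main fit. In that fit 15 of the 41 RNAs were lower and 2 higher, with 7 hosts higher, 7 protein genes lower and 5 higher. These counts thus rose together with those over all genes. Medians were 0.20 for Snord, -0.33 for Scarna and -0.42 without overlap, and Scarna9 was at 0.047.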

Other observations

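Genes annotated as snoRNA or scaRNA under other symbols were looked at after the results above were known. Of 71 tested, 8 were lower and 1 was higher in Cmtr1 cKO, 12.7% called against 11.4% of all genes tested, a similar share, with a median log2 difference of -0.16. Sorted by their own letters, 43 had the ACA end without the box C/D letters, of which 7 were lower and 0 higher with a median of -0.28. Of 9 with TGATGA and CTGA and no ACA end, 1 was lower and 1 higher, with a median of -0.20. Of 5 with both kinds of letters, 0 were lower and 0 higher, with a median of 0.02. Of 14 with neither, 0 were lower and 0 higher, with a median of 0.24.

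Gm24119, with an ACA end, had a mean of 126 ± 5.62 CPM (SD, n = 2) in the controls and 51.1 ± 11.8 CPM (SD, n = 4) in Cmtr1 cKO, a log2 difference of -1.29. Gm26448, also with an ACA end, had a log2 difference of -0.94, and Gm25395, with box C/D letters, had 214 ± 13.8 CPM in the controls and 145 ± 12.2 CPM in Cmtr1 cKO. The most abundant of these genes, Gm22009, had a log2 difference of 0.08 and was not called. Gm24339 was the 1 that was higher, by 0.53.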
